A study of Mus musculus with 2 samples.

Results

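The matrix metalloproteinases, the tissue inhibitors of metalloproteinases and the ADAMTS proteinases with their ADAMTS-like relatives were described in cultured mouse adipose stromal cells. Members were all genes named Mmp with a number, Timp1 to Timp4, or Adamts or Adamtsl with a number. The rule found 51 genes in both libraries, of 27995 genes that the libraries share. They comprised 23 Mmp, 4 Timp, 19 Adamts and 5 Adamtsl genes. Together they took 0.630% of the transcripts counted in the kept iWAT cells and 0.660% of those in the kept iBAT cells.

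The study asked how fibroblast growth factors act on the precursors of white and brown fat cells. Stromal vascular cells, which are the non-adipocyte cells that collagenase frees from fat, were taken from inguinal white (iWAT) and interscapular brown (iBAT) adipose tissue of wild-type C57BL/6N mice aged 8 to 12 weeks, and fat of several mice was pooled. The cells were grown in high-glucose DMEM to 80% confluency. Per the labels, 1 culture of each depot was left untreated and 3 received 5.5 nM of FGF1, of FGF2 or of FGF8 over 48 h. The 4 cultures of a depot were tagged and run as 1 single-cell library. The matrices hold 0 sample tag features and no file maps cells to tags, so each depot is 1 library that mixes all 4 cultures. No treatment could be compared, and no test between depots was possible. Each difference below compares 2 libraries, and each interval is an exact 95% interval that covers counting error only.

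Metalloproteinases are zinc enzymes that cut the proteins of the extracellular matrix. Mmp2 and Mmp9 are gelatinases, Mmp3 and Mmp10 are stromelysins, Mmp8 and Mmp13 are collagenases, Mmp12 is the macrophage elastase, and Mmp14 to Mmp17 belong to the membrane-bound type. The Timp proteins bind the active site of these enzymes and block it. ADAMTS enzymes are secreted, and groups of them cleave proteoglycans such as aggrecan and versican or trim the ends of fibrillar procollagens. ADAMTSL proteins share the ancillary domains but lack the catalytic one. In adipose tissue this system remodels the collagen network around growing fat cells and their precursors.

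Levels are given in CPM, the UMIs of a gene per 1000000 UMIs of the cells summed. A UMI marks 1 captured transcript molecule whatever its length, so a CPM value is a share of all molecules counted. Cells with more than 200 and fewer than 7500 genes and under 30% mitochondrial UMIs were kept, namely 29744 iWAT cells with a median of 16204 UMIs and 28215 iBAT cells with a median of 27235 UMIs. The libraries shared 8 cell barcodes. They also differed in sex-linked transcripts, with Xist at 345 CPM in iWAT and 0.0505 in iBAT, and Ddx3y at 1.20 and 81.9, so the sex of the donor mice and the depot cannot be told apart here.

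Cells were classed by 1 gene each. A cell with at least 1 UMI of Pdgfra (stromal), Epcam (epithelial), Ptprc (immune), Sox10 (glial) or Pecam1 (endothelial) and none of the other 4 was counted as positive for that gene. In iWAT there were 15196 Pdgfra-positive, 2430 Epcam-positive, 103 Ptprc-positive, 243 Sox10-positive and 91 Pecam1-positive cells. In iBAT there were 24305 Pdgfra-positive, 131 Ptprc-positive, 510 Sox10-positive and 147 Pecam1-positive cells, and the 7 Epcam-positive cells were too few to describe. Cells with 2 or more of the 5 genes, 4381 in iWAT and 1644 in iBAT, were placed in no class. Cells with none of the 5 genes were in no class either, 7300 in iWAT (24.5%) and 1471 in iBAT (5.21%). Of 6333 iWAT cells with an Epcam UMI and 2887 with a Sox10 UMI, the classes thus kept 2430 and 243.

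The class names were set against lists of defining markers. Each list named here includes the gene that defines its class, so part of each sum is fixed by the class rule. By the same rule that gene is absent from the other classes. Pecam1 gave 162 CPM of the endothelial sum in iWAT and 1502 in iBAT. Sox10 gave 187 and 410 of the Schwann sum, and Ptprc 280 and 177 of the immune sum. Epcam gave 592 of the iWAT epithelial sum. Summed immune markers reached 17107 CPM in Ptprc-positive iWAT cells and 16950 in those of iBAT, against 16.4 and 26.8 in Pdgfra-positive cells. The Ptprc-positive cells also held mesenchymal markers, at 4310 CPM in iWAT and 1786 in iBAT. The iBAT Sox10-positive cells carried Schwann markers at 1538 and the iBAT Pecam1-positive cells endothelial markers at 4561 CPM. Both also held mesenchymal markers, at 14232 and 3667 CPM, against 12158 in Pdgfra-positive iBAT cells. The sum of the iBAT Sox10-positive cells was mostly Col1a1 at 8461 and Col1a2 at 5258, against 6277 and 3868 in Pdgfra-positive cells. The other mesenchymal markers were lower in them, such as Col3a1 at 461 against 1458 and Dcn at 13.4 against 114. In iWAT the classes were mixed as well. Its Pecam1-positive cells held endothelial markers at only 352 but mesenchymal markers at 22382, so they are called by their gene and not as endothelium. Its Sox10-positive cells held Schwann markers at 498, epithelial markers at 447 and mesenchymal markers at 16653. Its Epcam-positive cells held epithelial markers at 2259 and mesenchymal markers at 9904, against 28714 for the latter in Pdgfra-positive cells.

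The stretch just upstream of the transcript start is shown for some Mmp genes, because several share a short motif there and sit side by side in the genome. Mmp19, which also holds that motif and was higher in iBAT, is not among them, nor is any Timp, Adamts or Adamtsl gene. All 51 members were placed on the GRCm39 genome with the GENCODE M39 annotation. A run of 10 members, in the order Mmp13, Mmp12, Mmp1b, Mmp3, Mmp1a, Mmp10, Mmp8, Mmp27, Mmp20 and Mmp7, lies in a single cluster at chr9:7272514-7699587. The 250 bases before the start of each canonical transcript were searched on both strands for the AP-1 letters TGAGTCA, the ETS letters AGGAAG and the TATA letters TATAAA. Each line below gives the last 100 bases before the start, 5′ to 3′ on the gene's strand with any of these letters on either strand in capitals. The stretches of Mmp9 and Mmp12 lie in an intron of longer transcripts of the same genes, that of Mmp14 in an intron of the antisense non-coding gene Gm62879, and the other 4 in no annotated gene. The first lines are the stromelysins and the collagenase Mmp13.
Mmp3, chr9:7445722-7445821, plus strand: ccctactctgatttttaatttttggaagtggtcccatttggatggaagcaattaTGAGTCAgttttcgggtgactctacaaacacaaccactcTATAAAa
Mmp10, chr9:7502253-7502352, plus strand: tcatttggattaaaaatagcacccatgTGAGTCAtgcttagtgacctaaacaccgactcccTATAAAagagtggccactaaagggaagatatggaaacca
Mmp13, chr9:7272414-7272513, plus strand: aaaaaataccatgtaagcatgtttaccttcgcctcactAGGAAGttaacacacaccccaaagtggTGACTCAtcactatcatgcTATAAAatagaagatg
The gelatinase Mmp9 and the macrophage elastase Mmp12 also hold the AP-1 letters.
Mmp9, chr2:164790039-164790138, plus strand: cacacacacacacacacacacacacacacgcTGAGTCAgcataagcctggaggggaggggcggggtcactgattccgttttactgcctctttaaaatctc
Mmp12, chr9:7347274-7347373, plus strand: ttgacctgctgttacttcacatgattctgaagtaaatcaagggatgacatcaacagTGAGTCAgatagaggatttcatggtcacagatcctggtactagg
The gelatinase Mmp2 and the membrane-type Mmp14 are shown for contrast, since neither holds them. Both of these were also higher in the iWAT library, by less than 2-fold.
Mmp2, chr8:93553802-93553901, plus strand: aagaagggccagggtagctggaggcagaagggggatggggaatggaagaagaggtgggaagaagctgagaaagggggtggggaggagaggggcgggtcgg
Mmp14, chr14:54668778-54668877, plus strand: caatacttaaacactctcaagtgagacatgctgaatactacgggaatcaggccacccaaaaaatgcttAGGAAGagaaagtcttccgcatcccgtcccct

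The AP-1 letters begin 46 bases before the start of Mmp3, 73 before Mmp10, 35 before Mmp13, 69 before Mmp9 and 44 before Mmp12. They occur in the 250-base window of 11 of the 51 members (21.6%), namely Mmp1a, Mmp1b, Mmp3, Mmp7, Mmp9, Mmp10, Mmp12, Mmp13, Mmp19, Mmp28 and Adamts3. Of 21735 protein-coding promoters of the same length, 875 (4.03%) hold them. Among the members with the letters, Mmp1a, Mmp1b, Mmp3, Mmp7, Mmp10, Mmp12 and Mmp13 lie in the chromosome 9 cluster. Only Mmp9, Mmp19, Mmp28 and Adamts3 lie elsewhere, so the 21.6% is not a share of separate loci. TATAAA was found in 13 members (25.5%) against 11.9% of all promoters, and AGGAAG in 18 members (35.3%) against 28.9%. In the lines above the capital stretches do not overlap. A match describes letters and is not a measured binding site, and these data hold no measure of binding.

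**Figure D1:**
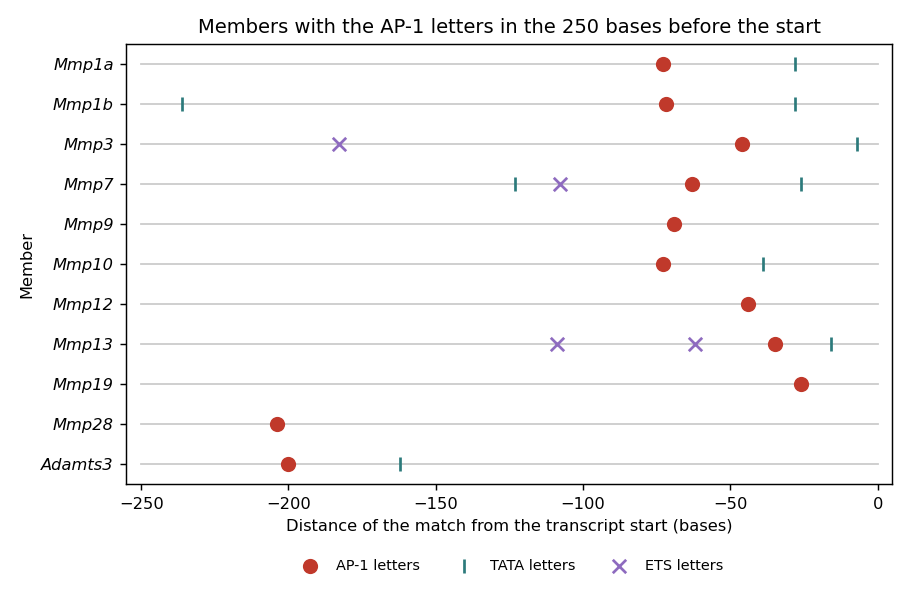
Positions of the AP-1, TATA and ETS letters in the 250 bases before the transcript start of the 11 members that hold the AP-1 letters, with the distance in bases on the horizontal axis and 1 line per member. In 9 members the AP-1 letters start within 75 bases of the transcript start, while in Mmp28 and Adamts3 they start 204 and 200 bases before it.

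The members covered a wide range of levels. Taking each at its higher library, 8 members reached 100 CPM or more, 18 lay between 10 and 100, 10 between 1 and 10, and 15 stayed below 1. The 8 most abundant were Timp1, Timp3, Timp2, Mmp3, Mmp14, Mmp2, Adamts5 and Mmp19. The 26 members at 10 or more in at least 1 library were compared between depots. Of these, 5 (19.2%) were at least 2-fold higher in iBAT, where 3.96% of all 9081 genes compared were, and 7 (26.9%) were at least 2-fold higher in iWAT, where 4.98% of all genes were. The median log2 ratio of iBAT over iWAT was -0.12 over the members and 0.05 over all genes compared.

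**Figure D2:**
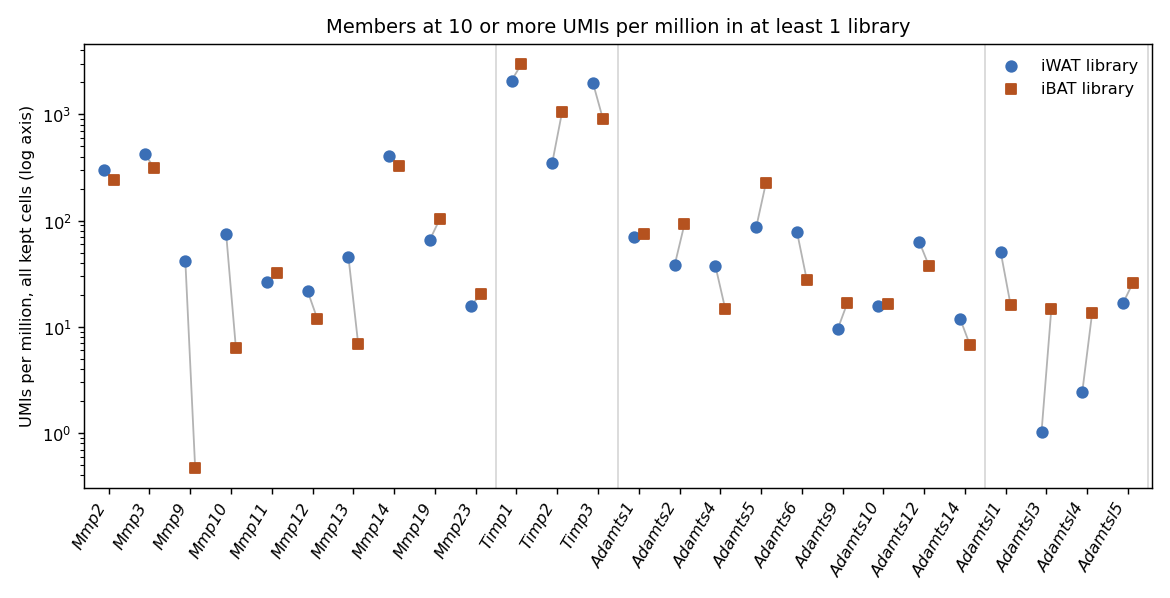
Levels of the 26 members at 10 or more CPM in at least 1 library, on a log axis, with the iWAT library as circles and the iBAT library as squares, grouped by family and joined within a gene. Timp1 stood highest at 2068 and 2959 CPM, and the longest joining line belongs to Mmp9 at 41.3 and 0.473.

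Among the proteinases, 3 genes supplied most transcripts in either depot. Mmp3, a stromelysin that cuts proteoglycans and activates other proenzymes, stood at 421 CPM in iWAT and 313 in iBAT. Mmp14, the membrane-anchored activator of pro-Mmp2, stood at 409 and 327. Mmp2, the gelatinase that Mmp14 activates, stood at 297 and 243. These genes held 29.3%, 28.5% and 20.7% of all Mmp UMIs in iWAT and 28.8%, 30.02% and 22.3% in iBAT. All of them were higher in the iWAT library by less than 2-fold, with ratios of 1.34 (1.34 to 1.35), 1.25 (1.24 to 1.26) and 1.22 (1.21 to 1.23). Thus over all kept cells the shares of the 3 main proteinases were much alike in the 2 libraries. Among Pdgfra-positive cells Mmp3, Mmp14 and Mmp2 were 1.69-fold, 1.25-fold and 1.39-fold higher in iWAT.

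Of the 10 compared Mmp genes 3 differed by 2-fold or more, and these were higher in iWAT. Mmp9, the inducible gelatinase, stood at 41.3 CPM in iWAT and 0.473 in iBAT, an 87.4-fold difference (78.9 to 97.0). There were 2430 Epcam-positive cells in iWAT and 7 in iBAT, and their part in the Mmp9 difference was not tested. Mmp10, the second stromelysin, stood at 75.4 and 6.27, a 12.0-fold difference (11.7 to 12.4). Mmp13, the main collagenase of rodents, stood at 45.5 and 6.84, a 6.65-fold difference (6.46 to 6.85). The macrophage elastase Mmp12 stood at 21.6 and 11.8, a 1.83-fold difference (1.78 to 1.88). Of the 6 compared members with the AP-1 letters, 5 were higher in iWAT, 3 of them by 2-fold or more and none in iBAT by as much, with a median log2 ratio of -1.80. The 20 compared members without the letters had 4 called higher in iWAT and 5 in iBAT, with a median of 0.19. All 6 with the letters are Mmp genes, while only 4 of the 20 are. Of those 4 Mmp genes 2 were higher in iWAT, 0 differed by 2-fold, and the median was -0.006. Over all 275 compared genes with the letters, 10.2% were called higher in iWAT and 5.45% in iBAT, with a median of 0.03, and over the 8516 without them 4.73% and 3.91%, with a median of 0.06. These counts are over all kept cells. Among Pdgfra-positive cells Mmp9 and Mmp12 were under 10 CPM in both libraries. There Mmp10 and Mmp13 stayed past 2-fold, while Mmp3 and Mmp19 did not reach it. Of the 6 members with the letters 4 also lie in the chromosome 9 cluster. The part of the letters, of the family or of the position in the difference was not tested.

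The other compared Mmp genes differed by less than 2-fold. Mmp19, a broad-spectrum enzyme with the AP-1 letters, was the exception in direction among the compared carriers, with 66.3 CPM in iWAT and 103 in iBAT. Mmp11, a stromelysin-like enzyme that furin activates inside the cell, stood at 26.5 and 32.1, and Mmp23 at 15.6 and 20.3. Mmp16, a membrane-type enzyme that did not reach the level for comparison, stood at 2.71 and 9.54, which is 3.51-fold (3.32 to 3.73) higher in iBAT.

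The inhibitors outnumbered the proteinases and divided by depot. Timp1, the main secreted inhibitor, stood at 2068 CPM in iWAT and 2959 in iBAT, 1.43-fold higher in iBAT. Timp2, which also takes part in the activation of pro-Mmp2 by Mmp14, stood at 351 and 1050.5, 2.99-fold (2.97 to 3.00) higher in iBAT. Timp3, the inhibitor that binds to the matrix and also blocks several ADAM and ADAMTS enzymes, stood at 1955 and 908.5, 2.15-fold (2.15 to 2.16) higher in iWAT. Timp4 was nearly silent at 0.195 and 0.155. As a result Timp3 made up 44.7% of the Timp UMIs in iWAT but 18.5% in iBAT, while Timp2 made up 8.03% and 21.4%. Weighting every cell equally instead of every UMI left Timp3 just short of the 2-fold mark, at an iBAT over iWAT ratio of 0.503.

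The ADAMTS proteinases pointed both ways. Adamts5, an aggrecanase and versicanase, stood at 86.0 CPM in iWAT and 226 in iBAT, 2.62-fold (2.60 to 2.65) higher in iBAT. Adamts2, the procollagen N-proteinase, stood at 37.9 and 92.0, 2.43-fold (2.39 to 2.46) higher in iBAT. Adamts4, the other classical aggrecanase, went the opposite way at 37.5 and 14.9, 2.52-fold (2.46 to 2.58) higher in iWAT. The aggrecanases thus differed between the libraries in opposite directions. Adamts6 stood at 78.7 and 27.9, 2.83-fold (2.78 to 2.87) higher in iWAT. Adamts1, a versican-cleaving enzyme, was close between the libraries at 69.3 and 74.8. The procollagen proteinase Adamts14 stood at 12.0 and 6.82, Adamts12 at 63.1 and 37.3, Adamts9 at 9.52 and 16.9 and Adamts10 at 15.7 and 16.3, and none of these 4 differed by 2-fold.

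The catalytically inactive ADAMTSL genes summed to the same level in both libraries, 70.3 CPM in iWAT and 70.4 in iBAT, but from different genes. Adamtsl1 stood at 50.05 in iWAT and 16.1 in iBAT, 3.10-fold (3.04 to 3.17) higher in iWAT, and supplied 71.2% of the family's UMIs there. Adamtsl3 stood at 1.03 and 14.8, 14.3-fold (13.1 to 15.6) higher in iBAT. Adamtsl4, a partner of fibrillin-1 microfibrils, stood at 2.46 and 13.5, 5.47-fold (5.16 to 5.81) higher in iBAT. Adamtsl5 stood at 16.8 and 25.9. In iBAT the family was spread over Adamtsl5, Adamtsl1, Adamtsl3 and Adamtsl4, with 36.8%, 22.9%, 21.0% and 19.1% of its UMIs.

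Most of the depot differences stood within the stromal class alone. Among Pdgfra-positive cells 24 members reached the level for comparison. The same 5 genes were at least 2-fold higher in iBAT, against 3.77% of all 8963 genes compared, and 6 of the 7 iWAT genes stayed at least 2-fold higher in iWAT, against 4.34% of all genes. Mmp10 stood at 80.7 in iWAT and 6.51 in iBAT there, Mmp13 at 45.2 and 6.46, Timp3 at 2055 and 925, and Timp2 at 334 and 1074. Adamtsl4 was further apart than over all cells, at 1.82 and 13.6, a ratio of 7.48 (6.85 to 8.19). Adamts2 was nearest the mark, with a ratio of 2.11 (2.07 to 2.15), which was 1.96 in cells with 2 or more Pdgfra UMIs. Mmp9 left the comparison, because it stood at 8.61 in Pdgfra-positive iWAT cells and 0.479 in those of iBAT, both under 10. At these low levels it was still 18.0-fold (16.0 to 20.2) higher in iWAT. Mmp12 also left the comparison, at 2.07 and 1.24.

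**Figure D3:**
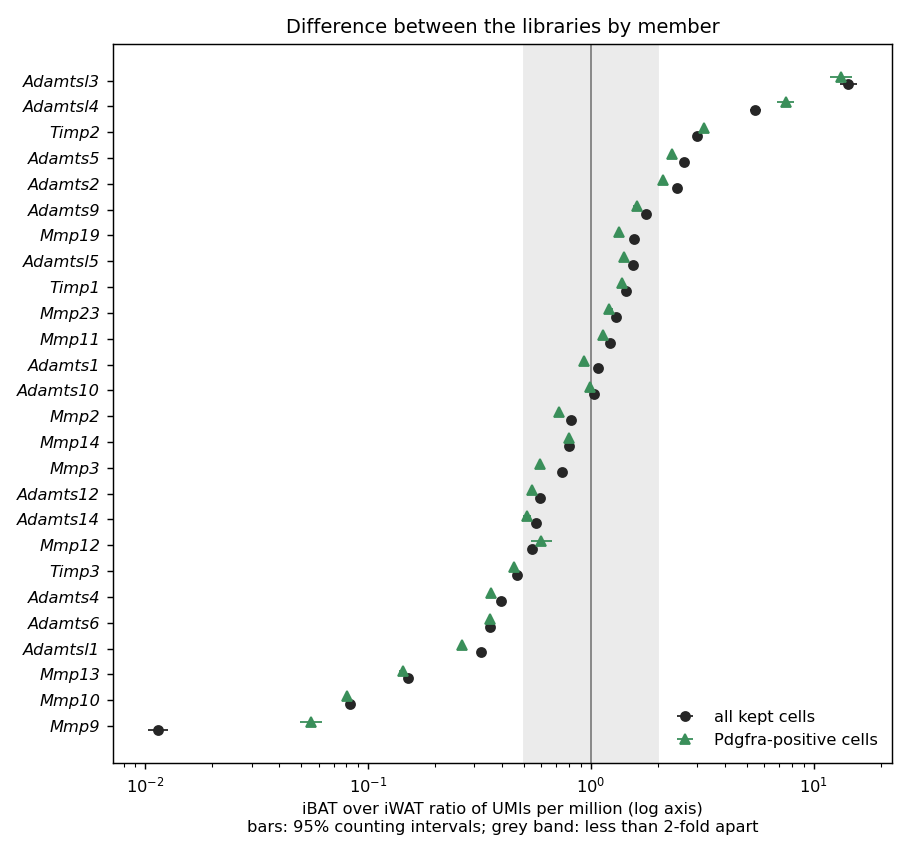
Ratio of iBAT over iWAT CPM on a log axis for the 26 compared members, over all kept cells (circles) and over Pdgfra-positive cells (triangles), with 95% counting intervals as bars and the range under 2-fold shaded. Adamtsl3 at 14.3 and Mmp9 at 0.0114 mark the ends, and the circles and triangles of most members lie close together, with Mmp9 and Adamtsl4 as the clearest exceptions.

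The remaining 25 members were low. Between 1 and 10 CPM were Mmp8, Mmp15, Mmp16, Mmp17, Mmp27, Mmp28, Adamts3, Adamts7, Adamts15 and Adamts16. None of these was 4-fold apart between the libraries, and the nearest were Adamts16 at 1.85 in iWAT and 0.471 in iBAT, a 3.92-fold difference, and Mmp16. Under 1 in both libraries were Mmp1a, Mmp1b, Mmp7, Mmp20, Mmp21, Mmp24, Mmp25, Timp4, Adamts8, Adamts13, Adamts17, Adamts18, Adamts19, Adamts20 and Adamtsl2, with higher-library levels from 0.0159 to 0.913.

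Levels of several members differed between the rarer cells of the cultures and the stroma. Class levels were set against Pdgfra-positive cells of the same library for members at 10 or more CPM in either, and a 4-fold difference was counted. Over the 7 class contrasts this gave 19 higher and 38 lower counts among 170 member comparisons, against 4.67% and 3.66% of all gene comparisons. With every cell that had the class gene, whatever other class genes it held, the same 7 contrasts gave 15 higher and 2 lower counts among 169 member comparisons, against 3.42% and 0.089% of all gene comparisons. In Ptprc-positive iWAT cells 6 of 27 compared members were at least 4-fold higher, against 7.94% of all genes, and 9 were at least 4-fold lower, against 6.68%. In Ptprc-positive iBAT cells 4 of 25 were higher, against 7.13%, and 13 were lower, against 9.72%.

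Mmp12 was the foremost proteinase of the immune cells. It stood at 4778 CPM (4657 to 4901) in Ptprc-positive iWAT cells against 2.07 in Pdgfra-positive cells, and at 1784 (1736 to 1833) against 1.24 in iBAT. At a fixed depth of 10000 UMIs per cell, at least 1 Mmp12 UMI was found in 54 of 64 Ptprc-positive iWAT cells (84.4%) and 94 of 131 iBAT cells (71.8%). In Pdgfra-positive cells, with median depths of 19019 and 27752 UMIs before thinning against 13488 and 21000 in the immune cells, the shares were 1.21% and 0.321%. Without thinning the 4 shares were 85.4%, 75.6%, 1.91% and 0.806%. The few Mmp12 UMIs of the stromal class sat in few cells. In iBAT 7 Pdgfra-positive cells with 10 or more held 74.4% of that class's Mmp12 UMIs, and summed immune markers were at 14419 CPM in them against 21.9 in the others. In iWAT 2 such cells held 32.7%, with immune markers at 1611 against 16.0.

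The collagenases and Mmp9 were also high in immune cells, and higher in those of iWAT. Mmp13 stood at 2253 CPM (2171 to 2338) in Ptprc-positive iWAT cells and 123 (110 to 136) in those of iBAT. Mmp8, the neutrophil collagenase, stood at 580 and 40.6, against 1.63 and 2.14 in Pdgfra-positive cells. Mmp9 stood at 519 in Ptprc-positive iWAT cells but rested on few UMIs in iBAT, where 6 of 131 cells had any. Mmp27 stood at 13.7 and 16.4, against 1.74 and 2.26 in Pdgfra-positive cells. Although Ptprc-positive cells made up 0.346% of the kept iWAT cells, they held 54.9% of all Mmp12 and 12.3% of all Mmp13 UMIs of that library. In iBAT they were 0.464% of the cells and held 56.0% and 6.64%. Adamtsl4 was the sixth member counted higher in iWAT, at 12.9 (7.35 to 20.9) from 16 UMIs.

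Several members of the stroma were low in immune cells. Ptprc-positive cells also held mesenchymal markers, and the part of stromal transcripts in the values below was not tested. Mmp3 stood at 49.9 in Ptprc-positive iWAT cells and 21.8 in those of iBAT, 11.3-fold and 15.3-fold below Pdgfra-positive cells. Timp1 stood at 436 and 424, which was 5.06-fold and 7.16-fold lower. Timp3 stood at 89.4 in the iBAT immune cells, 10.3-fold lower than in Pdgfra-positive cells. In the 91 iWAT and 124 iBAT cells that also had Tyrobp, an adaptor of immune receptors, Mmp3 stood at 21.8 and 13.3, 25.8-fold and 25.1-fold lower. Timp1 stood there at 156 and 246, 14.2-fold and 12.4-fold lower, and Timp3 at 184 and 43.3, 11.2-fold and 21.4-fold lower. The lower members were then 14 of 27 in iWAT, against 11% of all genes, and 15 of 25 in iBAT, against 11.8%. By Ptprc alone, the others counted lower in both libraries were Mmp11, Mmp23, Adamts1, Adamts2, Adamts4 and Adamts5. Mmp2, Timp3, Adamts9 and Adamtsl1 were counted lower in iBAT and were 3.09-fold, 3.91-fold, 2.72-fold and 3.82-fold lower in iWAT, and the difference between the libraries was not tested. With Tyrobp required, Mmp2, Timp3 and Adamtsl1 passed the 4-fold mark in iWAT too, so which of them counted in a library depended on how the class was drawn. Mmp10 was counted lower in iWAT and Adamtsl3 in iBAT, and neither reached 10 CPM for comparison in the other library.

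Epithelial cells, described in iWAT, carried Mmp9. It stood at 266 CPM (260 to 271) in Epcam-positive cells, 30.9-fold (29.5 to 32.3) above Pdgfra-positive cells. Of 24 members compared, Mmp9 and Mmp12 were at least 4-fold higher, against 4.02% of all genes, and Mmp3 was at least 4-fold lower, against 0.271%. At 10000 UMIs per cell 29.4% of 1413 Epcam-positive cells had an Mmp9 UMI and 4.97% of 13655 Pdgfra-positive cells did, or 32.2% and 7.50% without thinning. In the 1855 iWAT cells classed by Krt8 beside Epcam, Mmp9 stood at 350. Of 25 members compared there, Mmp15 at 11.4 joined Mmp9 and Mmp12 as higher, against 4.92% of all genes. Mmp2, Mmp19, Adamts2 and Adamtsl1 joined Mmp3 as lower, against 3.25%. Epcam-positive cells held 39.1% of the library's Mmp9 UMIs, cells with 2 or more class genes 34.8%, and Pdgfra-positive cells 11.8%. Among the last, 28 cells with 10 or more Mmp9 UMIs held 21.2%, and summed epithelial markers were at 47.6 CPM in these against 13.4 in the others. Mmp14 stood at 465 CPM in Epcam-positive and 409 in Pdgfra-positive cells, a ratio of 1.14 (1.12 to 1.16).

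Sox10-positive cells of iBAT, which carried Schwann markers beside mesenchymal ones, had higher levels of Mmp15, Mmp17, Adamts1 and Adamtsl1 than Pdgfra-positive cells. Of 24 members compared, 4 were at least 4-fold higher in Sox10-positive than in Pdgfra-positive iBAT cells, against 4.17% of all genes, and 5 were at least 4-fold lower, against 4.9%. Adamts1 stood at 560 CPM (544 to 576), 8.28-fold (8.04 to 8.54) higher. Mmp17 stood at 102, 25.9-fold (23.9 to 27.9) higher, and Mmp15 at 58.0 (52.9 to 63.4), 95.2-fold higher, both membrane-bound enzymes. Adamtsl1 stood at 73.2, 4.74-fold higher. At 10000 UMIs per cell 62.4% of 510 Sox10-positive cells had an Mmp17 UMI and 42.9% an Mmp15 UMI, against 3.79% and 0.568% of Pdgfra-positive cells, and without thinning 74.9%, 53.7%, 9.92% and 1.48%. The 5 lower members were Mmp3 at 25.9, Mmp23 at 3.47, Timp1 at 539, Adamts2 at 19.6 and Adamtsl4 at 3.11.

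In iWAT the Sox10-positive cells were mixed, and their values depend on how the class is drawn. Mmp9 and Mmp17 were at least 4-fold higher there, 2 of 24 against 2.77% of all genes, and Mmp3 and Mmp13 were at least 4-fold lower, against 0.175%. Mmp9 stood at 72.7 in these cells, beside epithelial markers at 447 and mesenchymal markers at 16653, and at 0.478 in the Sox10-positive iBAT cells, where the epithelial markers were at 0. The higher iWAT Mmp9 level did not hold under a stricter definition of the class, which is not reported here, so it is given as a level of mixed cells. The part of the other cells' transcripts in it was not tested. Mmp17 stood at 43.9 (36.9 to 51.8), Adamts5 at 185, Adamts1 at 104 and Mmp15 at 8.78. In the 107 iWAT cells with 2 or more Sox10 UMIs Mmp17 stood at 101 (83.3 to 121), Adamts5 at 346, Adamts1 at 189 and Mmp15 at 18.8, each above its level in the class as drawn. With any Sox10 UMI, whatever other class genes the cell held, the Mmp17 ratio to Pdgfra-positive cells was 1.17, against 8.94 in the class as drawn.

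Adamts4 was higher in Pecam1-positive cells of iBAT, which carried endothelial markers, than in stroma. It stood at 89.3 CPM (79.0 to 100.5), 6.41-fold (5.66 to 7.22) above Pdgfra-positive cells, and was the 1 of 23 members at least 4-fold higher, against 5.41% of all genes. In the 122 cells that also had Cdh5, the endothelial cadherin, it stood at 101. Lower by at least 4-fold were 7 members, against 3.33%, namely Mmp3, Mmp19, Mmp23, Timp1, Adamts2, Adamts5 and Adamtsl3. Among these Mmp3 stood at 16.2, 20.5-fold lower, and Timp1 at 540, 5.62-fold lower. With Cdh5 required, Timp1 stood at 299, 10.2-fold lower, and 9 members were at least 4-fold lower, against 5.74%. In the Pecam1-positive iWAT cells no member of 23 was 4-fold higher, against 0.908%, and only Mmp3 was 4-fold lower, against 0.112%, in cells whose markers were largely mesenchymal.

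**Figure D4:**
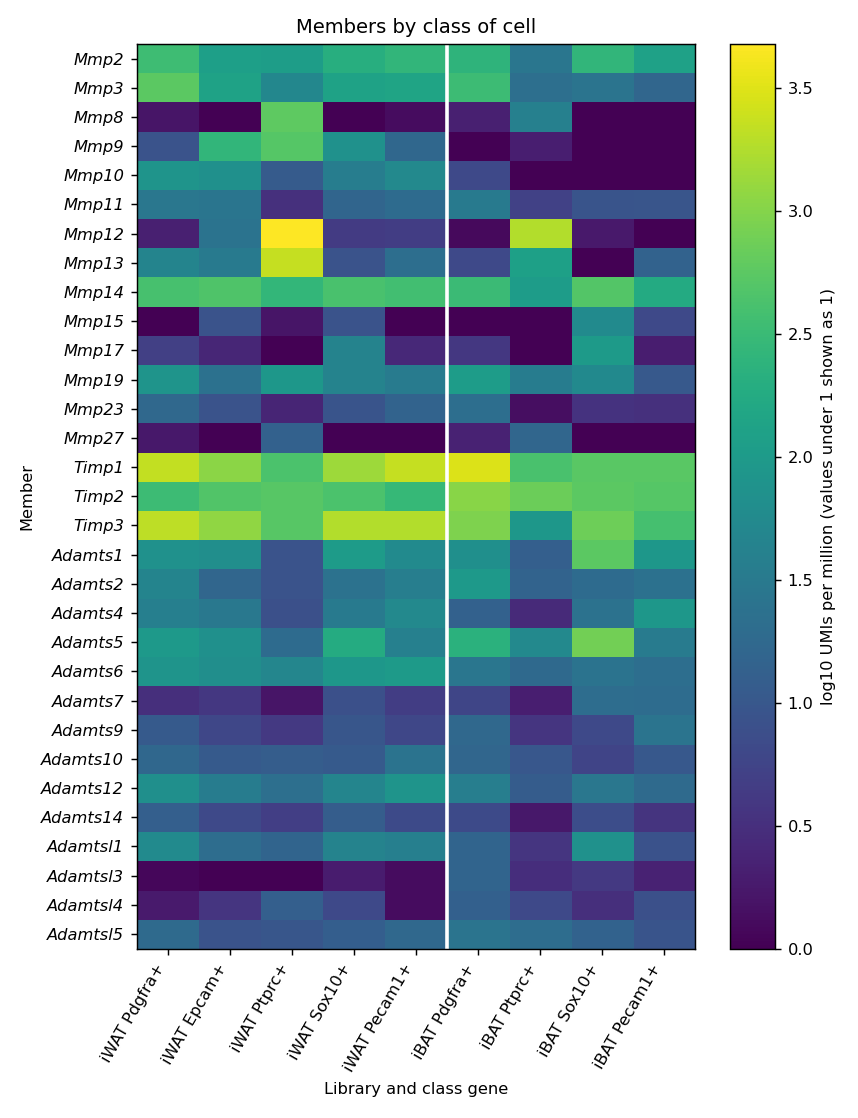
Levels of the members that reached 10 CPM in at least 1 class, as log10 CPM by colour, with 1 column per class and library and values under 1 drawn as 1. Mmp12 in Ptprc-positive iWAT cells is the brightest square at 4778 CPM, and Mmp15 and Mmp17 stand out in Sox10-positive iBAT cells at 58.0 and 102.

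Within the stroma, some members were in nearly every cell and others in a small share. To compare cells at equal depth, 13655 of the 15196 Pdgfra-positive iWAT cells and all 24305 of iBAT were thinned to 10000 UMIs, and shallower cells were left out. Mmp14 was then found in 94.8% of iWAT and 92.2% of iBAT cells, Timp1 in 99.8% of either, and Timp2 in 92.4% and 99.6%. Mmp3 was found in 51.9% and 31.1%, against 60.2% and 41.8% without thinning, and in 17.2% and 8.40% of Ptprc-positive cells. Mmp10 was found in 23.5% and 2.61%, or 29.6% and 4.66% without thinning, and Mmp13 in 12.4% and 2.46%, or 16.0% and 4.13%. At equal depth a lower mean lowers this share too, so the shares of Mmp10 and Mmp13 are not a separate observation. The same UMIs spread evenly would give 53.4% and 5.95% of cells for Mmp10, and 36.5% and 6.24% for Mmp13.

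Mmp3 was concentrated in a minority of stromal cells. The 10% of thinned cells with most Mmp3 held 67.3% of its UMIs in iWAT and 82.6% in iBAT, and single cells reached 195 and 196 UMIs. Its variance was 33.7 and 34.9 times its mean, where a gene spread evenly would give about 1. For Mmp14 the same measure was 2.06 and 1.92. Timp3 was also uneven, at 31.7 and 27.9, as was Mmp13 at 13.99 and 8.75. Mmp10 stood at 8.05 and 8.04, while Adamts10, with a mean of 0.17 UMIs per cell, stood at 1.05 and 1.04. Timp1, found in 99.8% of cells, stood at 13.4 and 14.9, with 27.7% and 25.5% of its UMIs in its top 10% of cells. The measure also depends on a gene's mean, so by itself it does not mark a gene held by few cells.

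Mmp13 was higher in stromal cells with an Mmp3 UMI than in those without, by a split chosen after the values were seen. At equal depth Mmp13 stood at 75.3 CPM in iWAT cells with an Mmp3 UMI and 13.3 in those without, a 5.67-fold difference (5.28 to 6.10). In iBAT the values were 16.4 and 1.94, an 8.45-fold difference (7.47 to 9.58). Mmp10 stood at 90.9 and 60.6 in iWAT cells with and without Mmp3, and at 13.4 and 2.84 in those of iBAT. Mmp14 had ratios of 1.08 and 0.956 in the same split. Across single cells Pearson's r of Mmp3 with Mmp13 was 0.31 in iWAT and 0.21 in iBAT, low values over sparse counts of 1 library each. The stromelysins Mmp3 and Mmp10 had an r of 0.07 in iWAT and 0.14 in iBAT, while Mmp3 with Timp1 had 0.12 and 0.29.

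Timp3 was higher, and Mmp3, Mmp13, Mmp10, Mmp19 and Mmp2 lower, in the stromal cells with most Acta2, the smooth muscle actin of contractile fibroblasts. Acta2 had a UMI in 98.7% and 96.8% of the cells, and Timp3 was 3.96-fold and 2.94-fold higher in these than in cells with none. Since few cells had none, the cells were also ranked by Acta2 UMIs and the cells with most and fewest compared, 25% of the cells at either end, a choice made after the data were seen. Each end held 3413 iWAT or 6076 iBAT cells, with median Acta2 counts of 48 and 6 in iWAT and 42 and 2 in iBAT. Timp3 stood at 2970.5 CPM in the high-Acta2 and 1026 in the low-Acta2 cells of iWAT, a ratio of 2.90 (2.86 to 2.93), and at 1656 and 460 in iBAT, a ratio of 3.60 (3.56 to 3.65). Mmp3 stood at 342 and 912 in iWAT and 170.4 and 516 in iBAT, ratios of 0.376 and 0.331. Mmp13 had ratios of 0.353 and 0.289, Mmp10 of 0.467 and 0.169, Mmp19 of 0.445 and 0.512, and Mmp2 of 0.609 and 0.531. Mmp14 was nearly level at 1.02 and 1.07, and Mmp23 lay on the Timp3 side at 1.22 and 1.57. Timp1 and Timp2 did not share the Timp3 pattern, with ratios of 1.19 and 0.889 in iWAT and 0.830 and 0.982 in iBAT. Adamts12 was higher with Acta2 in both libraries, at 1.43 and 2.26, while Adamts5 was 1.07 in iWAT and 1.96 in iBAT.

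Cycling, early-progenitor and fat-forming stromal cells were set apart by 1 gene each. Cells with a UMI of the proliferation gene Mki67, 41.5% of iWAT and 41.6% of iBAT cells, had Timp3 at 0.645 and 0.691 times, and Mmp2 at 0.792 and 0.660 times, the level of the others. Mmp13 was at 0.828 and 0.496 times and Mmp11 at 0.883 and 0.588 times, while Adamts14 was at 1.02 and 1.20 times. Cells with Dpp4, a gene of early progenitors, were 17.9% of iWAT and 1.73% of iBAT cells, and had Timp3 at 0.613 and 0.704 times and Mmp2 at 1.26 and 1.33 times the level of the others. Mmp10 was at 1.16 times in iWAT and 2.59 times (1.99 to 3.33) in iBAT, and Timp1 at 0.669 and 1.17 times. Cells with the interferon-induced gene Isg15 were 73.6% of iWAT and 7.54% of iBAT cells. They had Timp3 at 1.40 and 1.66 times the level of the others, Mmp3 at 1.17 and 1.45 times and Mmp10 at 0.804 and 0.269 times. The fat cell gene Adipoq was found in 136 thinned iBAT cells and 9 thinned iWAT cells, and the latter are too few to describe. In those of iBAT Mmp11 stood at 176 CPM against 34.6, a ratio of 5.10 (4.47 to 5.80), and Mmp2 at 467 against 259. Mmp3 stood at 96.3 against 337 and Timp3 at 411 against 949.9. Among the members, Mmp11 was thus 5.10-fold higher and Mmp3 3.50-fold lower in the Adipoq-positive cells.

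Timp transcripts outnumbered Mmp transcripts in the described classes other than the Ptprc-positive cells. Over all kept cells there were 3.05 Timp UMIs per Mmp UMI (3.04 to 3.06) in iWAT and 4.52 (4.51 to 4.53) in iBAT. The family sums were 4375 and 4919 CPM for Timp and 1435 and 1088 for Mmp, so both terms contributed. Pdgfra-positive cells had ratios of 2.88 and 4.56. Ptprc-positive cells had 0.171 (0.163 to 0.180) in iWAT and 0.562 (0.540 to 0.586) in iBAT, with more Mmp than Timp transcripts, and 0.0888 and 0.390 where Tyrobp was also required. In Sox10-positive iBAT cells the Adamts sum of 1485 CPM and the Mmp sum of 1028 together exceeded the Timp sum of 1838. The ratio was 2.32 in Epcam-positive iWAT cells, 3.60 and 1.79 in Sox10-positive cells and 4.56 and 3.88 in Pecam1-positive cells. Transcript ratios do not measure the proteins or their activity.

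**Figure D5:**
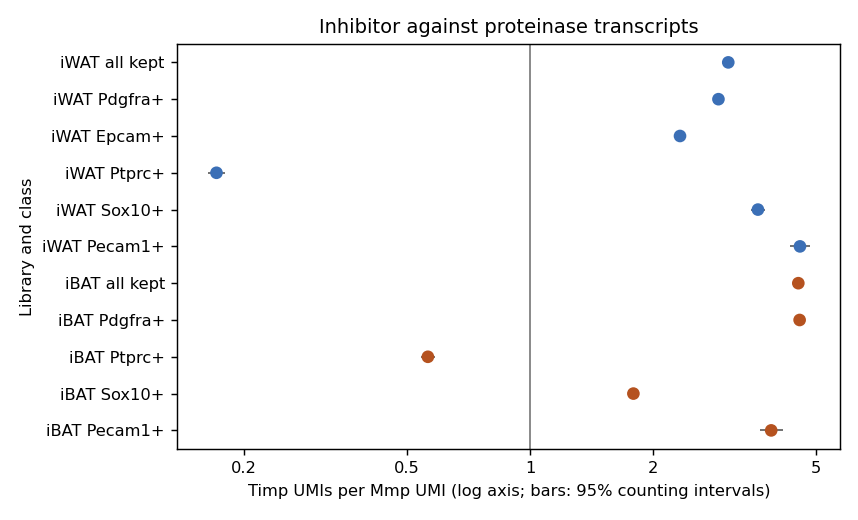
Timp UMIs per Mmp UMI on a log axis for all kept cells and for each class of the iWAT (blue) and iBAT (brown) libraries, with 95% counting intervals as bars and a line at 1. The Ptprc-positive cells lie left of 1 at 0.171 and 0.562, and all others lie between 1.79 and 4.56.

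Some other genes of pericellular proteolysis also differed between the libraries. Of 48 listed genes, which include plasminogen activators, proprotein convertases, cathepsins, ADAM proteinases and ADAMTS substrates, 37 reached 10 CPM and were compared. At least 2-fold higher in iWAT were 5 genes, among them the convertase Pcsk5 at 64.7 CPM in iWAT and 16.7 in iBAT, the fibroblast activation protease Fap at 51.1 and 13.0, the dipeptidyl peptidase Dpp4 at 20.2 and 2.11, and the serine protease Htra1 at 123 and 20.01. At least 2-fold higher in iBAT were the convertase Pcsk6, at 4.63 and 10.6, and the proteinase Adam8, at 5.42 and 11.6. The 2 and 5 of 37 stand beside 3.96% and 4.98% of all genes, and the median log2 ratio was 0.07.

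Some counts could draw on neighbouring genes. A protein-coding gene overlaps 14 members, 12 on the opposite and 2 on the same strand. The last are Timp2 with Cep295nl, at 2.20 and 3.65 CPM, and Adamtsl1 with Sh3gl2, at 0.289 and 0.239. Syn3, at 35.7 in iWAT and 16.4 in iBAT, lies opposite Timp3. Whether the counting used strand is not given in the sources used here. In the last 500 bases, where these reads concentrate, only Mmp3 shares 100 bases or more at 95% identity with another annotated gene, 211 bases with Gm15242.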

How the data were processed

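A single-cell library was read for each depot, made by BD Rhapsody whole-transcriptome capture. The authors deposited matrices of raw UMI counts per gene and cell, on mm39 with Seurat 5.0.0 named in the submitters' processing notes; reads were aligned in a genomics company's data pipeline per the study's methods, and its aligner is not given in the sources used here. The libraries held 29962 and 28636 barcodes and 503611913 and 815235820 UMIs. Cells were kept as the study states, and UMIs were summed per library or class and scaled to CPM with Python 3.11.15, numpy 2.4.6, pandas 2.3.3 and scipy 1.17.1. Ratios carry exact conditional binomial 95% intervals, levels exact Poisson and shares Clopper-Pearson intervals, all for counting error only. No doublet caller was run, and cells with 2 or more class genes were left out of classes. Cells were thinned without replacement (seed 1). All members are accounted for, with values for those at 10 or more CPM in a library. Lower members are named where 4-fold apart at 1 or more, or 4-fold over Pdgfra-positive cells at 10 or more in a class. TMM (edgeR 4.0.16) and median-of-ratios (DESeq2 1.42.0) scalings, run in R 4.3.3, other thresholds, cell filters and class definitions were alternatives, and the ratio script was tested on simulated data. Members and lists were chosen with earlier results of these data known. The labels name 4 cultures per depot, the series text untreated and FGF2 cultures alone, and the study's methods vehicle, FGF1 and FGF2 without FGF8, from mice of 8 to 10 weeks. Some genes and the results that rest on them are not reported here.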

Additional observations from a re-analysis of the deposited data

Results flagged for a closer look

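Adamtsl4 and Adamtsl1 moved in opposite directions in the 2 libraries under the same class contrast. Adamtsl4 in Ptprc-positive over Pdgfra-positive cells had a ratio of 7.06 in iWAT, from 16 UMIs, and 0.476 in iBAT. Adamtsl1 in Sox10-positive over Pdgfra-positive cells had a ratio of 0.746 in iWAT and 4.74 in iBAT. In cells with 2 or more Sox10 UMIs, the Adamtsl1 ratio was 1.05 (0.829 to 1.32) in iWAT and 4.98 in iBAT. With 1 library per depot, neither difference was tested.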

How the results depend on the processing

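With 1 library per depot no replicate could be left out. No paired analysis was possible because each depot has 1 library and no result comes from a test. The called library ratios kept their direction in 148 of 148 alternatives and stayed past 2-fold in 146, and no called ratio moved by over 1.38 times. TMM and median-of-ratios scaling multiplied the iBAT over iWAT ratios by 0.979 and 0.973. Counts followed the thresholds. At a fold of 4, 2 members were higher in iBAT and 3 in iWAT over kept cells, against 1.57% and 1.74% of all genes, and 2 and 2 over Pdgfra-positive cells, against 1.39% and 1.28%. At a level of 50 the counts were 3 and 4 over kept cells, against 3.64% and 4.37%, and 3 and 4 over Pdgfra-positive cells, against 3.51% and 4.04%. Over the 7 class contrasts 19 of 170 were higher and 38 lower. A fold of 2 gave 23 higher and 67 lower of 170, against 8.88% and 9.68% of all gene comparisons. A level of 1 gave 30 and 50 of 251, against 6.35% and 4.46%, and a level of 50 gave 13 and 23 of 95, against 5.08% and 3.72%. Classing any cell with the class gene gave 15 and 2 of 192 over 8 contrasts, against 3.03% and 0.0823%. The Timp per Mmp ratio was 3.06 in iWAT under a stricter cell filter, 2.84 in iWAT and 4.32 in iBAT with cells weighted equally, and 2.88 and 4.56 in Pdgfra-positive cells. Requiring a second class gene, chosen for this ratio after seeing the data, moved it to 0.0888 and 0.390 in Ptprc-positive cells, 1.66 in Epcam-positive iWAT cells and 3.16 in Pecam1-positive iBAT cells. A stricter definition of the Sox10 class was also computed and is not reported here, and the higher Mmp9 level of the iWAT Sox10-positive cells did not hold under it. The classes of 91 to 243 cells limit the precision of their values.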
